A study of Mus musculus with 15 samples.

Results

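The 36 genes described here belong to the amino acid and integrated stress response of mouse embryonic stem (ES) cells on their way to paraxial mesoderm. They are a list of names, chosen with earlier results of these data known. Each gene was read from the probe set, among those annotated to that gene alone, with the highest mean over all 15 arrays. That mean chose the probe set and supports no result below. Of the 36 genes, 35 had such a probe set and 34 were bright enough to be tested, among 12389 genes tested in all. Pycr1, a proline synthesis enzyme, had no probe set of its own in the annotation used here and was skipped. Slc7a11, the cystine-glutamate exchanger, read between 7.49 and 11.8 on all 15 arrays, where array medians lay between 29.4 and 31.2, and was not tested.

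The study differentiated ES cells in serum-free media that combined a Wnt activator, an inhibitor of BMP signalling and DMSO, and measured RNA on Affymetrix arrays in 5 groups of 3 arrays. The ES group was the E14 line (strain 129P2) at day 0, unsorted, grown with 15% fetal bovine serum, 2 mM glutamine, 0.1 mM nonessential amino acids, LIF and the 2i inhibitors CHIRON99021 and PD0325901, on feeders of inactivated embryonic fibroblasts, with 1 passage onto gelatin before differentiation. Differentiating cells spent 2 days in N2B27 with 1% serum replacement and BMP4 at 10 ng/ml, and then moved to a DMEM-based medium with 15% serum replacement, 0.5% DMSO and the BMP inhibitor LDN193189 at 0.1 µM. RDL medium added Rspo3, a secreted Wnt activator, at 10 ng/ml, and CDL medium added CHIRON99021, a GSK3 inhibitor, at 1 µM in its place. The labels end the name of the BMP inhibitor in different digits for different groups (LDN193189, LDN193191 and LDN193193). The day 4 cells were E14 cells sorted as positive for the Msgn1-repV reporter, which marks presomitic mesoderm. The day 6 cells were of another line, CK35 (strain 129Sv), sorted as positive for Pax3-GFP. Day 6 therefore differed from day 4 and from ES cells in line, strain and reporter as well as in time, and these cannot be told apart. The labels call the arrays biological replicates and say no more of separate cultures, so the p-values measure the spread between these arrays, which may be technical in part.

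The integrated stress response begins with kinases that phosphorylate the translation factor eIF2 when amino acids run short, unfolded proteins collect in the endoplasmic reticulum, or other stresses act. General translation then slows, while translation of the transcription factor ATF4 rises, so the level of Atf4 mRNA does not measure ATF4 protein. With partners of the C/EBP family, ATF4 binds C/EBP-ATF response elements and turns on genes for amino acid transport and synthesis, redox balance and feedback.

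Promoter sequences are shown for the 5 tested members in which the core of that element, TGATGNAA on either strand, lies wholly before the annotated start, and for Hspa5, the member called lower in CDL medium at day 6. Each is a stretch of 120 bases, 5′ to 3′ along the gene, from RefSeq on GRCm38.p6, and capitals mark the match. In Nupr1, Chac1, Vldlr and Herpud1 the element reads on the other strand, and in Asns on the gene's own strand. In Hspa5 the capitals mark the endoplasmic reticulum stress element (ERSE), which overlaps no match of the first motif.
Nupr1, chr7:126625517-126625636, minus strand: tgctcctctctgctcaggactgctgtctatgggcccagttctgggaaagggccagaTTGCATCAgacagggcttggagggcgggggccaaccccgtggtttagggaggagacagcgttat
Chac1, chr2:119350993-119351112, plus strand: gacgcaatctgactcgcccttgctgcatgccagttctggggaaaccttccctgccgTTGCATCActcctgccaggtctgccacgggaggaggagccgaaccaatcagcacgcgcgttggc
Asns, chr6:7693210-7693329, minus strand: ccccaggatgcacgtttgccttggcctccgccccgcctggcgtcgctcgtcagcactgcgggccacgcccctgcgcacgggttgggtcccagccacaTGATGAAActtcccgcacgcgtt
Vldlr, chr19:27216770-27216889, plus strand: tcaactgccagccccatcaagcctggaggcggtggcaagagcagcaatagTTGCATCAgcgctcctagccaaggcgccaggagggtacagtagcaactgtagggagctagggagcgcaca
Herpud1, chr8:94386261-94386380, plus strand: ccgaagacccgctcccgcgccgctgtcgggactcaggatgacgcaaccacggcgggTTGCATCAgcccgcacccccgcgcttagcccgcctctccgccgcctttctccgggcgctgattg
Hspa5, chr2:34771970-34772089, plus strand: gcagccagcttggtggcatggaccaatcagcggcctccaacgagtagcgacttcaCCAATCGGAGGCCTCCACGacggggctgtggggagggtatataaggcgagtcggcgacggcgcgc
The first motif was found in 9 of the 30 members with a window of 250 bases before to 50 after a start, and in 1219 of the 27025 genes in the table (3.97% of its 32851 windows). The other members with a match were Pycr1 and Slc7a11, which were not tested, and Slc1a4 and Trib3, whose matches lie across and after the start. The second motif was found in 0.119% of windows and, among the members, in Hspa5. Windows for Aldh1l2, Cth, Eif4ebp1, Slc1a5, Slc7a3 and Slc7a5 were not used here. A match is a description of letters and was not tested as a site.

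The labelled cell states were read in their markers. Msgn1 read 148 to 366 on the 6 day 4 arrays and 24.6 to 44.3 elsewhere, and Pax3 read 252 to 618 at day 6 and 49.8 to 119 elsewhere. Array 1 of CDL day 4 stood apart from its mates, with a summed signal of 6 ES cell markers of 5704 against 1066 and 901, and Nanog at 1441 against 40.9 and 41.4. Array 1 of RDL day 6 also stood apart, its actin probe sets giving a 3′ to 5′ ratio of 1.90 where the other 14 gave 1.43 to 1.85. Its Gapdh ratio of 1.02 lay within the range of all arrays (0.974 to 1.11). Its mean correlation with its group, 0.978, was the lowest of all arrays (highest 0.997). For many results where either array ended a call or moved a printed difference by over 1.5 times, the value without it is given. In sorted populations such as these, fewer cells of a type and less RNA per cell cannot be told apart.

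The share of members called stood furthest from that of all genes in the comparison of the media at day 6. There 17 of the 34 tested members were called higher in CDL and 1 lower, where a call is an adjusted p under 0.05 in the limma fit over all genes. Of all genes tested, 3.65% were called higher and 3.92% lower. Because the members were chosen with earlier results of these data known, this gap describes the list and does not test it. In 19 members all 3 CDL arrays lay above all 3 RDL arrays, and in 3 all lay below (all genes: 9.59% and 10.3%). The median difference, CDL minus RDL, was 0.43 on the log2(signal + 12.6) scale over the members and 0.0011 over all genes, and each ± below is the SE of that fit on this scale. By role, the members called higher in CDL were 4 of 8 regulators, 0 of 3 brakes on mTORC1 and translation, 2 of 3 genes of glutathione and transsulphuration, 1 of 2 of asparagine and proline synthesis, 6 of 7 of serine and one-carbon metabolism, 2 of 6 transporters, 0 of 3 of the endoplasmic reticulum, and both remaining genes. At day 4 the same comparison called 3 members higher in CDL and 0 lower (all genes: 2.9% and 1.52%), and 12 members passed an unadjusted p under 0.05. The difference between the 2 medium effects, the interaction of medium and day, was called for 8 members, all with a larger effect at day 6 (all genes: 2.31% in that direction and 3.09% in the other). Fitted on the 6 day 6 arrays alone, the day 6 comparison called 8 members, all higher in CDL. At day 4 the count was 0 without array 2 of RDL and 1 (Chac1) without array 2 of CDL. It was 5 without array 1 of CDL day 4 and array 1 of RDL day 6.

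**Figure D1:**
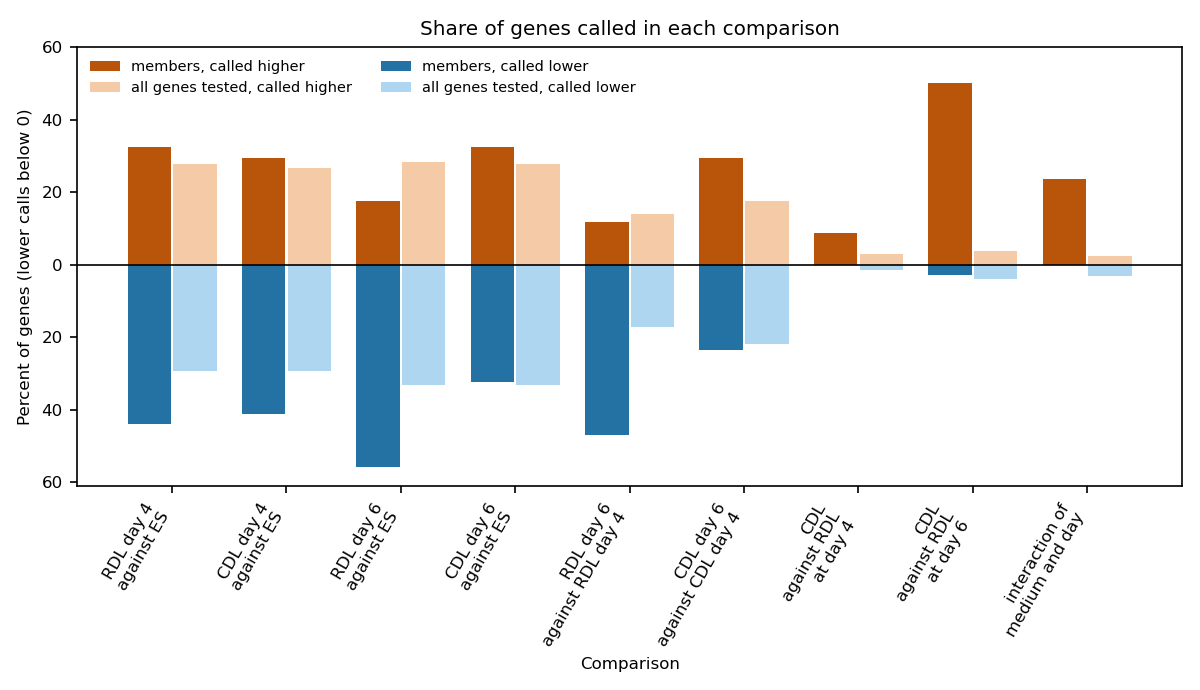
Bars give the percent of genes called higher (above 0) and lower (below 0) in each of 9 comparisons, dark for the 34 tested members and light for all 12389 genes tested. At day 6 the share called higher in CDL than in RDL was 50% of members and 3.65% of all genes. The members were chosen with earlier results of these data known.

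Between days, RDL cells had 4 members higher and 16 lower at day 6 than at day 4 (all genes: 13.8% higher and 17.1% lower), with a median of -0.33 against -0.019 for all genes. The 16 included 3 of 3 brakes and 5 of 6 transporters, the call of the brake Eif4ebp1 being lost without any of 5 single arrays (-0.31 to -0.39, adjusted p = 0.0553 to 0.093). In CDL, 10 members were higher and 8 lower (all genes: 17.4% and 21.9%). Against ES cells, 11 members were higher and 15 lower in RDL day 4 (all genes: 27.6% and 29.4%), and 10 higher and 14 lower in CDL day 4 (all genes: 26.6% and 29.4%). In RDL day 6, 6 members were higher and 19 lower than in ES cells (all genes: 28.3% and 33.2%), and in CDL day 6, 11 were higher and 11 lower (all genes: 27.8% and 33.2%). The comparisons with ES cells share the ES arrays, and the 2 day 6 groups also enter the comparisons between days and media. Of all genes tested, 57%, 56%, 61.5% and 60.9% were called in either direction in these 4 comparisons, so a call against ES cells is the common case.

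**Figure D2:**
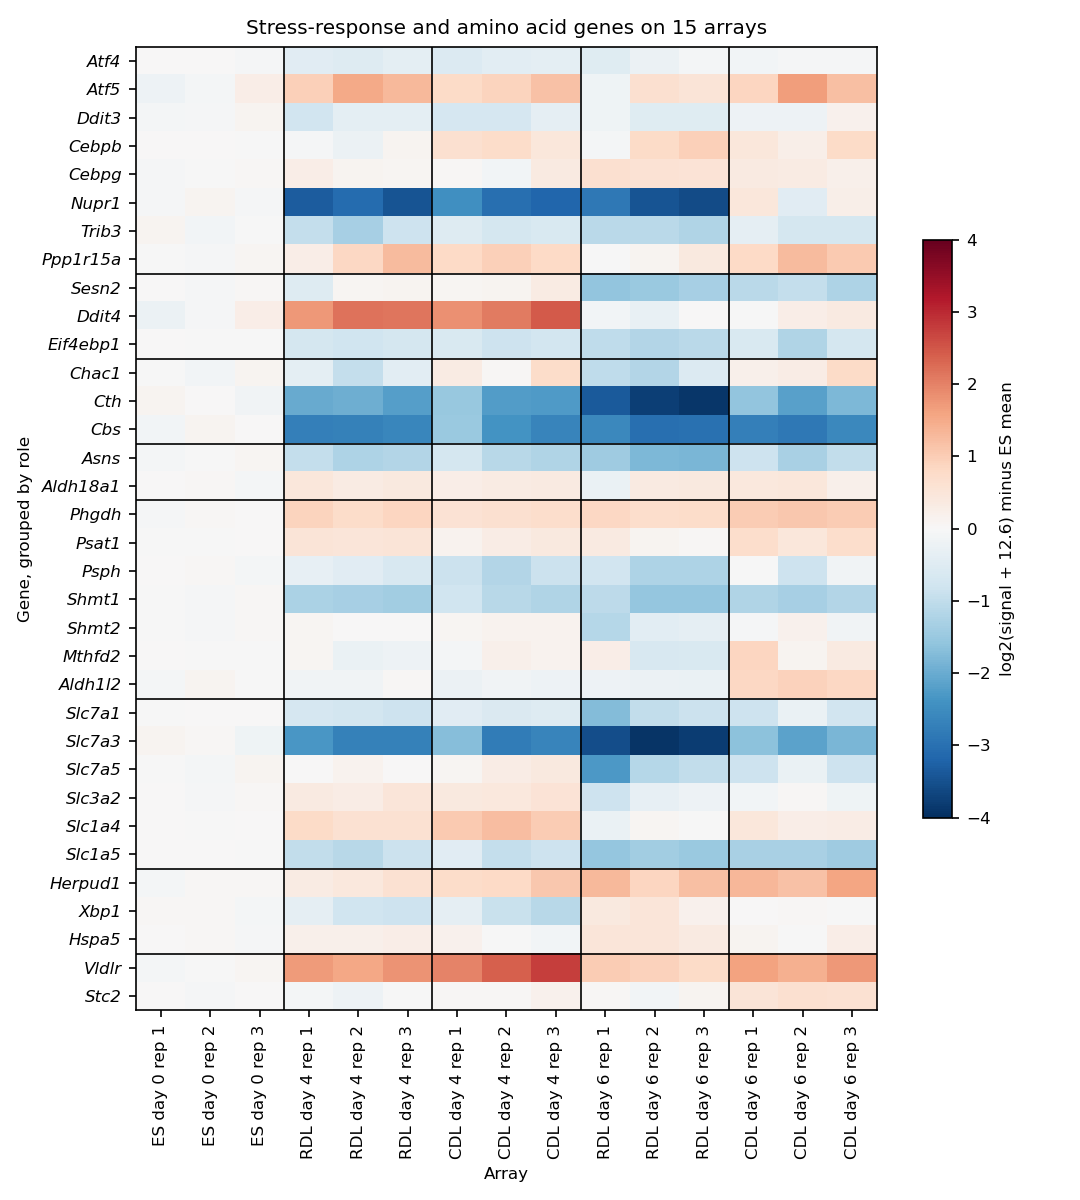
Each row is a tested member, grouped by role, and each column an array. Colour gives log2(signal + 12.6) minus the mean of the 3 ES arrays, red above and blue below. Nupr1 was about as bright on the CDL day 6 arrays as on the ES arrays and dim on the other 9.

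Among the regulators of the response, Nupr1, a stress-induced chromatin-associated cofactor, differed most. Its signal was 592, 658 and 589 on the ES arrays, 49.8, 61.9 and 44.7 in RDL day 4, 101, 63.9 and 56.4 in CDL day 4, 72.7, 44.9 and 39.6 in RDL day 6, and 839, 446 and 722 in CDL day 6. The CDL day 6 arrays spanned the ES arrays and did not overlap any other differentiated group. CDL exceeded RDL at day 6 by 3.38 ± 0.23 (SE, log2 scale, adjusted p = 1.63e-07), a 12.8-fold ratio of mean signals. At day 4 the media differed by 0.39 ± 0.23 (adjusted p = 0.484), or 0.18 without array 1 of CDL day 4, and the effect at day 6 exceeded that at day 4 by 2.98 ± 0.33 (adjusted p = 3.55e-05). A second probe set of Nupr1, whose name marks it as open to cross-hybridisation, gave 3.43 at day 6.

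Atf4 itself was bright on all 15 arrays. It read 2886, 2867 and 2750 in ES cells, 2050, 1972 and 2179 in RDL day 4, 1939, 2124 and 2139 in CDL day 4, 2002, 2421 and 2701 in RDL day 6, and 2640, 2735 and 2738 in CDL day 6. Both day 4 groups were below ES cells by 0.45 ± 0.09 (adjusted p = 0.000402 in RDL and 0.00043 in CDL), and neither call held when all probe sets of the gene were averaged. The media differed at day 6 by 0.20 ± 0.09 (adjusted p = 0.242), with overlapping arrays. Without array 1 of RDL day 6 that difference was 0.080.

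Atf5, a related factor that is also controlled by translation, read 61.8, 69.5 and 91.1 in ES cells, 154, 231 and 198 in RDL day 4, 133, 147 and 179 in CDL day 4, 63.4, 122 and 110 in RDL day 6, and 143, 258 and 184 in CDL day 6. The day 4 and CDL day 6 arrays all lay above the ES arrays, and RDL day 6 overlapped them. It was 0.91 ± 0.23 higher in CDL than in RDL at day 6 (adjusted p = 0.0209), a call lost without array 1 of RDL day 6 (0.66, adjusted p = 0.0559) and without array 2 (0.70, adjusted p = 0.0863) or array 3 (0.93, adjusted p = 0.0572) of CDL day 6. Its medium effect was 1.22 ± 0.32 larger at day 6 than at day 4 (adjusted p = 0.0362), and this call was lost in 9 of 26 alternative settings, among them the one without array 1 of CDL day 4 (1.14, adjusted p = 0.0771) and the one without array 2 of RDL day 4 (1.10, adjusted p = 0.106).

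Trib3, a pseudokinase that feeds back on ATF4, was below ES cells in all 4 differentiated groups. It read 153, 130 and 140 in ES cells, 65.8, 48.2 and 72.9 in RDL day 4, 94.4, 82.2 and 86.8 in CDL day 4, 60.4, 59.6 and 53.9 in RDL day 6, and 107, 81.1 and 82.3 in CDL day 6. At both days the CDL arrays all lay above the RDL arrays, by 0.44 ± 0.13 at day 4 (adjusted p = 0.0749) and by 0.53 ± 0.13 at day 6 (adjusted p = 0.0165). The latter call was lost without array 1 of CDL day 6 (0.42, adjusted p = 0.0884) or array 3 of RDL day 6 (0.49, adjusted p = 0.0715). Ppp1r15a, the phosphatase subunit that reverses eIF2 phosphorylation, read 223 to 245 in ES cells, 279 to 581 in RDL day 4, 409 to 459 in CDL day 4, 230 to 311 in RDL day 6 and 415 to 569.5 in CDL day 6. RDL day 6 overlapped the ES arrays, and the other 3 groups did not. It was 0.87 ± 0.20 higher in CDL at day 6 (adjusted p = 0.0105). In RDL it was called lower at day 6 than at day 4, a call lost without array 1 of RDL day 6 (-0.54, adjusted p = 0.0749). That call was also lost without array 2 of RDL day 6, or without array 2 or 3 of RDL day 4 (-0.38 to -0.60, adjusted p = 0.0618 to 0.142).

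The other 3 regulators were not called between media at either day. Ddit3 (CHOP), a factor linked to cell death under lasting stress, differed from ES cells by -0.52 ± 0.14 in RDL day 4 and by -0.57 ± 0.14 in CDL day 4. Its second probe set gave opposite calls against ES cells, higher by 0.50 in CDL day 4 and by 0.55 in RDL day 6, and called it 0.89 higher in CDL than in RDL at day 6 (adjusted p = 0.000186). No direction is drawn for Ddit3. Cebpb, which encodes a C/EBP factor, exceeded ES cells by 0.61 ± 0.21 in CDL day 4 and by 0.55 ± 0.21 in RDL day 6. The first call was lost without array 2 of CDL day 4 (0.55, adjusted p = 0.0679) or array 3 of the ES group (0.60, adjusted p = 0.0512). The second was lost without any single ES array and without array 2 or 3 of RDL day 6, lowest without array 3 (0.34, adjusted p = 0.172). RDL day 6 read 80.2, 153 and 179, and ES cells 83.8 to 86.4. Without array 1 of RDL day 6 the second difference was 0.86. Cebpg, which encodes a C/EBP partner of ATF4, was 0.44 ± 0.11 higher at day 6 than at day 4 in RDL (adjusted p = 0.0076), a call lost in the mean of its probe sets. Its CDL day 6 arrays (191, 189 and 172) all lay below its RDL day 6 arrays (238, 226 and 221), without a call.

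Among the brakes on mTORC1 and translation, Ddit4 (REDD1) was high at day 4. It read 115, 132 and 166 in ES cells, 487, 652 and 641 in RDL day 4, 511, 610 and 806 in CDL day 4, 125, 108 and 139 in RDL day 6, and 136, 165 and 177 in CDL day 6. The day 4 arrays stood clear of all others, and both day 6 groups overlapped with ES cells. Ddit4 rose by 2.01 ± 0.18 in RDL (adjusted p = 6.51e-08) and by 2.11 ± 0.18 in CDL (adjusted p = 5.13e-08) from ES cells to day 4. At day 6 it was lower than at day 4, with differences of -2.14 ± 0.18 in RDL and -1.91 ± 0.18 in CDL.

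Sesn2, a leucine sensor that restrains mTORC1, was not called against ES cells at day 4 and was lower at day 6. It read 212, 204 and 220 in ES cells, 145, 224 and 229 in RDL day 4, 226, 229 and 271 in CDL day 4, 62.9, 68.0 and 77.7 in RDL day 6, and 94.2, 104 and 83.8 in CDL day 6. Day 6 differed from day 4 by -1.35 ± 0.15 in RDL (adjusted p = 3.33e-06) and by -1.26 ± 0.15 in CDL (adjusted p = 5.66e-06). The 3 CDL arrays lay above the 3 RDL arrays at day 6, by 0.38 ± 0.15, which was not called (adjusted p = 0.156). Eif4ebp1, a repressor of cap-dependent translation, differed from ES cells by -0.72 to -1.09 in the 4 groups, at signals of 1754 to 4118. A second probe set gave the same calls against ES cells, was called 0.42 higher in CDL at day 6 (adjusted p = 0.0131), while another gave opposite ones (0.33 in CDL day 4 and 0.37 at day 6 in both media), so its direction is uncertain.

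**Figure D3:**
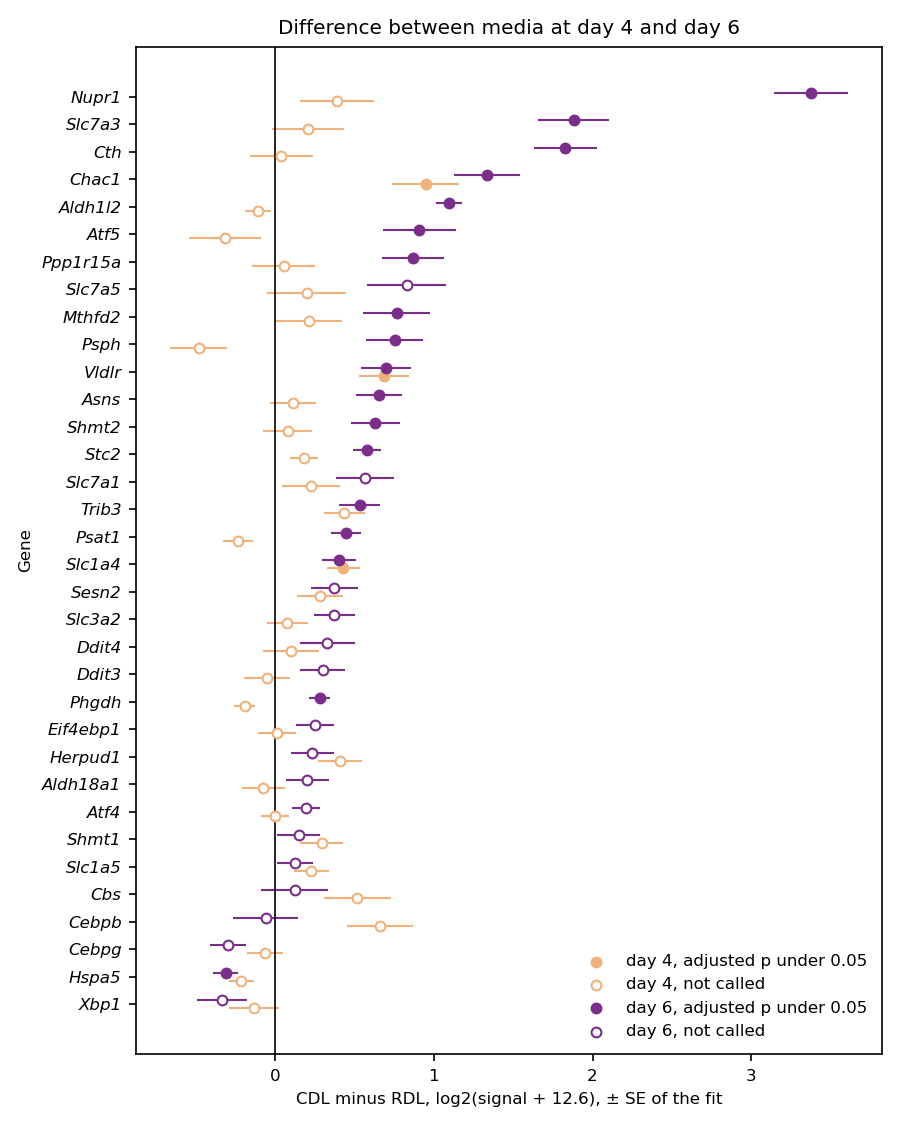
Each row is a tested member, ordered by its difference between media at day 6. Points give CDL minus RDL on the log2(signal + 12.6) scale with the SE of the fit, orange for day 4 and purple for day 6, filled where the adjusted p was under 0.05. At day 6, 30 of 34 differences lay above 0, from Xbp1 at -0.33 to Nupr1 at 3.38.

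The genes of glutathione breakdown and transsulphuration parted by medium at day 6, apart from Cbs. Chac1, which degrades glutathione, read 176, 165 and 195 in ES cells, 133, 85.6 and 131 in RDL day 4, 226, 184 and 302 in CDL day 4, 81.9, 72.4 and 119 in RDL day 6, and 209, 223 and 312 in CDL day 6. The CDL arrays lay above the RDL arrays at both days. The difference was 0.95 ± 0.21 at day 4 (adjusted p = 0.0144) and 1.33 ± 0.21 at day 6 (adjusted p = 0.000612), and the effects at the 2 days differed by 0.38 ± 0.30 (adjusted p = 0.597). The day 4 call was lost without array 3 of CDL (0.77, adjusted p = 0.0602) or array 2 of RDL (0.76, adjusted p = 0.0902).

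Cth, which makes cysteine from cystathionine, was lower than in ES cells everywhere. It read 2436, 2245 and 2043 in ES cells, 541, 567 and 479 in RDL day 4, 768, 463 and 451 in CDL day 4, 208, 153 and 138 in RDL day 6, and 748, 486 and 637 in CDL day 6. RDL day 6 lay below every other array. The media differed by 1.83 ± 0.20 at day 6 (adjusted p = 1.77e-05) and by 0.042 ± 0.20 at day 4 (-0.20 without array 1 of CDL day 4), and the 2 effects differed by 1.79 ± 0.28 (adjusted p = 0.000954). In RDL it dropped by 1.61 ± 0.20 from day 4 to day 6, and in CDL the change was 0.17 ± 0.20 (adjusted p = 0.514), or 0.42 without array 1 of CDL day 4 (adjusted p = 0.0772).

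Cbs, which makes the cystathionine, followed another course. It read 239, 280 and 266 in ES cells and 28.6, 29.1 and 31.9 in RDL day 4, 85.1, 39.7 and 31.3 in CDL day 4, 33.7, 21.5 and 22.3 in RDL day 6, and 28.9, 25.3 and 32.7 in CDL day 6. All 4 groups were far below ES cells and, apart from array 1 of CDL day 4 at 85.1, close to the array medians. The drop from ES cells was the largest among the members in CDL day 6, at -2.72 ± 0.21, and the media did not differ by a call at day 6 (0.12 ± 0.21, adjusted p = 0.832, or 0.27 without array 1 of RDL day 6). The call of a lower level in CDL at day 6 than at day 4 (-0.55 ± 0.21, adjusted p = 0.0495) was lost without array 1 of CDL day 4 (-0.21, adjusted p = 0.248).

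Asns, asparagine synthetase and a classic ATF4 target, read 5024, 5288 and 5635 in ES cells, 2729, 2246 and 2354 in RDL day 4, 3245, 2429 and 2315 in CDL day 4, 1989, 1503 and 1473 in RDL day 6, and 2998, 2163 and 2681 in CDL day 6. Every differentiated array lay below the ES arrays, and the RDL day 6 arrays lay lowest. CDL exceeded RDL at day 6 by 0.66 ± 0.14 (adjusted p = 0.00926), and a second probe set gave 0.66 as well. Without array 1 of CDL day 6 the call was lost (0.55, adjusted p = 0.0534). In RDL the level dropped by 0.57 ± 0.14 between days, and in CDL the change was -0.023 ± 0.14. The CDL change includes array 1 of CDL day 4, which stood apart and read 3245 against 2429 and 2315, so no direction is drawn for it. Aldh18a1, which commits glutamate to proline synthesis, was 0.39 ± 0.14 above ES cells in RDL day 4 (adjusted p = 0.0227) and 0.37 ± 0.14 above in CDL day 6 (adjusted p = 0.0285). Each of these calls was lost without 1 of 4 arrays, with differences of 0.32 to 0.39. The gene was called in no comparison of media or days, at signals of 542 to 898.

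**Figure D4:**
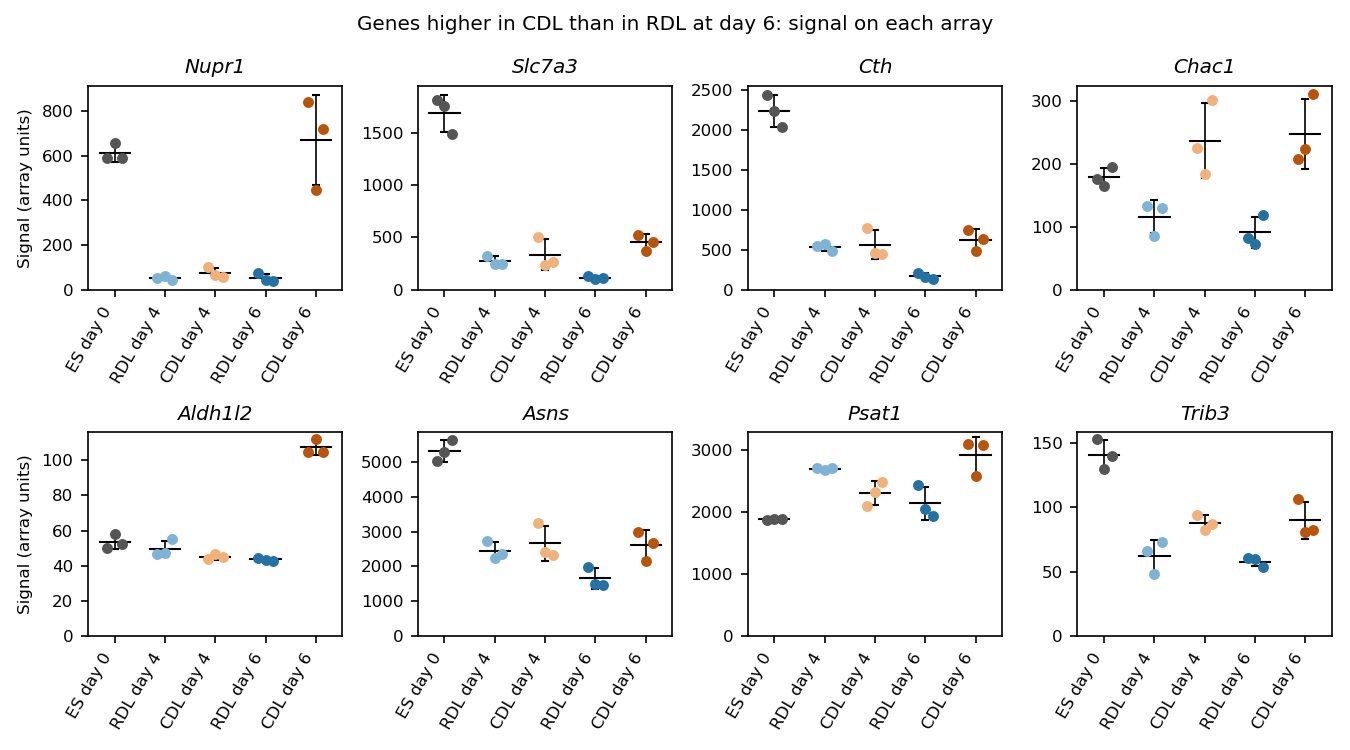
Points give the signal of each array, in linear array units, for 8 members called higher in CDL than in RDL at day 6, with a bar at the mean and error bars of 1 SD (n = 3). For these 8 every CDL day 6 array lay above every RDL day 6 array, and for Nupr1 the CDL day 6 mean was 669 and the RDL day 6 mean 52.4.

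Of the 7 serine and one-carbon enzymes, 6 were called higher in CDL than in RDL at day 6 and 0 lower (all genes: 3.65% and 3.92%). The calls of Phgdh, Psph, Mthfd2 and Shmt2 were lost with certain single arrays left out, as given below. Aldh1l2, a mitochondrial formyltetrahydrofolate dehydrogenase, read 49.9, 57.8 and 52.2 in ES cells, 46.8, 47.1 and 55.0 in RDL day 4, 43.6, 46.7 and 44.8 in CDL day 4, 44.5, 43.4 and 42.7 in RDL day 6, and 105, 112 and 105 in CDL day 6. The CDL day 6 arrays alone stood above the rest, which covered a narrow range of 42.7 to 57.8. CDL exceeded RDL by 1.09 ± 0.08 at day 6 (adjusted p = 3.42e-07) and the effect was 1.20 ± 0.12 larger than at day 4 (adjusted p = 1.1e-05).

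The 3 enzymes that make serine, Phgdh, Psat1 and Psph, each had a medium effect that differed between the days. Phgdh, the first enzyme, read 1572 to 1676 in ES cells, 2744 to 3058 in RDL day 4, 2443 to 2689 in CDL day 4, 2670 to 2921 in RDL day 6 and 3330 to 3477 in CDL day 6. It was above ES cells in all 4 groups, by 0.64 to 1.04, and CDL exceeded RDL at day 6 by 0.28 ± 0.07 (adjusted p = 0.0131), where at day 4 the CDL arrays lay below the RDL arrays by -0.19 ± 0.07 (adjusted p = 0.146). The effects differed by 0.47 ± 0.09 (adjusted p = 0.0059). The day 6 call was lost without array 2 of RDL (0.26, adjusted p = 0.0632).

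Psat1, the second enzyme, read 1880, 1884 and 1895 in ES cells, 2708, 2672 and 2703 in RDL day 4, 2093, 2330 and 2480 in CDL day 4, 2440, 2048 and 1935 in RDL day 6, and 3097, 2575 and 3084 in CDL day 6. The RDL arrays lay above the CDL arrays at day 4 and below them at day 6, with no overlap at either day. Between days it dropped by 0.34 ± 0.09 in RDL (adjusted p = 0.0117) and rose by 0.34 ± 0.09 in CDL (adjusted p = 0.00925), and the medium effects differed by 0.68 ± 0.13 (adjusted p = 0.00561). The fall in RDL was not called without array 3 of RDL day 6 (-0.27, adjusted p = 0.0572).

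Psph, the last enzyme, read 777, 802 and 734 in ES cells, 606, 556 and 494 in RDL day 4, 422, 337 and 422 in CDL day 4, 446, 321 and 318 in RDL day 6, and 761, 433 and 691 in CDL day 6. It showed the same order of the media, though array 1 of RDL day 6 and array 2 of CDL day 6 overlapped. Psph was 0.75 ± 0.18 higher in CDL at day 6 (adjusted p = 0.0156), and the effects differed by 1.23 ± 0.26 (adjusted p = 0.00821). It too dropped between days in RDL, by 0.61 ± 0.18, and rose in CDL, by 0.63 ± 0.18. The day 6 call of the media was lost without array 1 or 3 of CDL (0.60 and 0.67) or array 2 or 3 of RDL (0.68 and 0.67), at adjusted p of 0.0681 to 0.0841. The calls between days were each lost without 3 or 4 single arrays too, and the call of the difference between the effects was kept in all 26 alternative settings.

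Of the folate enzymes, Mthfd2, a mitochondrial enzyme of one-carbon transfer, read 980, 779 and 810 in RDL day 4, 877, 1075 and 1026 in CDL day 4, 1119, 595 and 608 in RDL day 6 and 1696, 998 and 1210 in CDL day 6, with ES cells at 923 to 940. Array 1 of RDL day 6 overlapped the CDL arrays, and the difference at day 6 was 0.77 ± 0.21 with it (adjusted p = 0.035) and 1.06 without it (adjusted p = 0.000471). The call was lost without any of 7 other arrays, and was lowest without array 1 of CDL day 6 (0.56, adjusted p = 0.161). Shmt2, the mitochondrial serine hydroxymethyltransferase, was 0.63 ± 0.16 higher in CDL at day 6 (adjusted p = 0.0187). In RDL it dropped by 0.68 ± 0.16 from day 4, and array 1 of RDL day 6 read 342 against 576 and 591 (dropped by 0.43 without it). Without that array the day 6 difference was 0.38 (adjusted p = 0.0135), and without array 2 of CDL day 6 it was not called (0.54, adjusted p = 0.0691). Shmt1, the cytosolic form, differed from ES cells by -1.04 to -1.39 in the 4 groups and was not called between media or days.

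Among the amino acid transporters, Slc7a3, which carries arginine and lysine, was also lowest in RDL day 6. It read 1814, 1752 and 1486 in ES cells, 325, 245 and 245 in RDL day 4, 506, 233 and 259 in CDL day 4, 133, 97.8 and 109 in RDL day 6, and 525, 373 and 459 in CDL day 6. The RDL day 6 arrays lay below all others. The media differed at day 6 by 1.88 ± 0.22 (adjusted p = 4.89e-05), a 3.99-fold ratio, and the effect was 1.67 ± 0.32 larger than at day 4 (adjusted p = 0.00474). In RDL it dropped by 1.17 ± 0.22 between days. In CDL the change was 0.50 ± 0.22 (adjusted p = 0.0917), and without array 1 of CDL day 4 it was called, at 0.83 (adjusted p = 0.00121).

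Slc7a5 and Slc3a2 encode the light and heavy chains of LAT1, the transporter that brings in leucine. Slc7a5 read 760, 728 and 823 in ES cells, 771, 855 and 775 in RDL day 4, 822, 943 and 1007 in CDL day 4, 146, 346 and 383 in RDL day 6, and 433, 633 and 428 in CDL day 6. Both chains were lower at day 6 than at day 4 in both media. For Slc7a5 the difference was -1.52 ± 0.25 in RDL and -0.89 ± 0.25 in CDL, and for Slc3a2 it was -0.83 ± 0.13 and -0.54 ± 0.13. Slc3a2 read 1244 to 1425 in RDL day 4, 1344 to 1510 in CDL day 4, 564 to 888 in RDL day 6 and 898 to 1043 in CDL day 6, against 992 to 1045 in ES cells. For both chains the CDL day 6 arrays lay above the RDL day 6 arrays without a call, Slc7a5 by 0.83 ± 0.25 (adjusted p = 0.056) and Slc3a2 by 0.37 ± 0.13 (adjusted p = 0.101). Array 1 of RDL day 6 had the lowest Slc7a5, and without it the difference between media was 0.42 (adjusted p = 0.0734) for Slc7a5 and 0.18 (adjusted p = 0.21) for Slc3a2.

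Slc1a4, a carrier of alanine, serine and cysteine, read 116, 114 and 116 in ES cells, 204, 184 and 183 in RDL day 4, 252, 287 and 247 in CDL day 4, 94.8, 123 and 114 in RDL day 6, and 162, 143 and 144 in CDL day 6. CDL arrays lay above RDL arrays at both days, by 0.43 ± 0.11 at day 4 (adjusted p = 0.0265) and 0.40 ± 0.11 at day 6 (adjusted p = 0.0264). Neither call held without the array of its own comparison that stood apart, at 0.46 for day 4 (adjusted p = 0.0564) and 0.31 for day 6 (adjusted p = 0.0598). Each was also lost without any of 3 other arrays, with differences of 0.35 to 0.43. Slc1a5, a glutamine carrier, differed from ES cells by -0.75 to -1.46 in the 4 groups and was lower at day 6 than at day 4 in both media, with signals of 24.1 to 30.7 at day 6. Slc7a1, another arginine and lysine carrier, differed from ES cells by -1.18 to -0.52, the call in CDL day 4 being lost without any of 5 single arrays. Its difference between media at day 6, 0.57 ± 0.18, was not called (adjusted p = 0.0769) and was 0.29 without array 1 of RDL day 6.

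**Figure D5:**
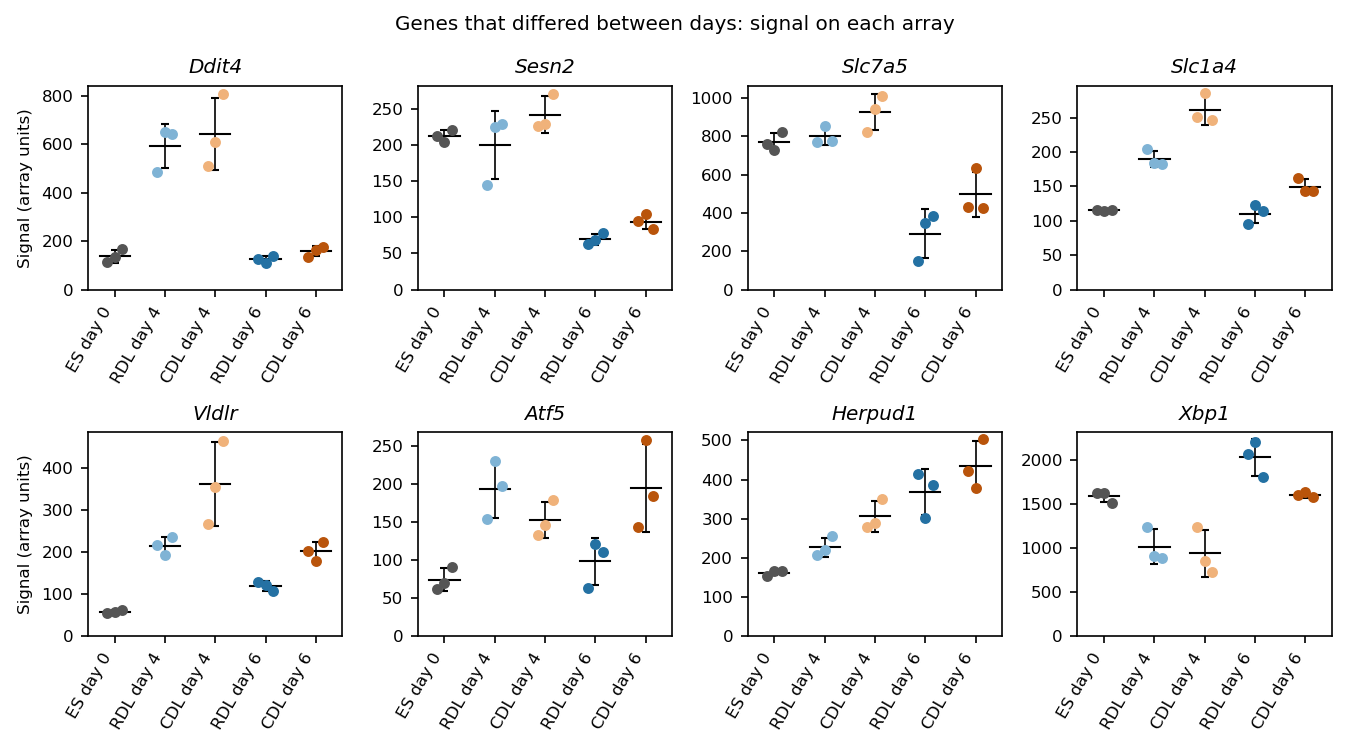
Points give the signal of each array, in linear array units, for 8 members that were called between day 4 and day 6 in at least one medium, with a bar at the mean and error bars of 1 SD (n = 3). Ddit4 had day 4 means of 593 (RDL) and 642 (CDL), against 124 and 159 at day 6.

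Of the 3 genes of the endoplasmic reticulum, 0 were called higher in CDL at day 6 and 1 lower (all genes: 3.65% and 3.92%). Hspa5, the chaperone BiP, was the one called, at 5074, 4628 and 5667 against 6501, 6552 and 5951 in RDL, a difference of -0.31 ± 0.08 (adjusted p = 0.0252). This call was lost in the mean of its probe sets (-0.22, adjusted p = 0.0593) and without array 1 or 2 of CDL (-0.31 and -0.24) or array 2 of RDL (-0.28). Herpud1, which serves the degradation of misfolded proteins, read 154 to 166 in ES cells, 207 to 255 in RDL day 4, 278 to 351 in CDL day 4, 302 to 415 in RDL day 6 and 379 to 503 in CDL day 6. It was above ES cells in all 4 groups and rose between days in both media, by 0.66 ± 0.14 in RDL and 0.49 ± 0.14 in CDL. Without array 3 of CDL day 6 the latter was not called (0.38, adjusted p = 0.0635), and without array 3 of RDL day 4 the difference of that group from ES cells was not (0.37, adjusted p = 0.0534). Xbp1, a transcription factor activated by splicing of its mRNA, read 1511 to 1630 in ES cells, 892 to 1245 in RDL day 4, 727 to 1238 in CDL day 4, 1810 to 2215 in RDL day 6 and 1579 to 1643 in CDL day 6. It was below ES cells at day 4 in both media. Between days it rose by 1.00 ± 0.16 in RDL and 0.80 ± 0.16 in CDL, with no view of splicing from the array. At day 6 its CDL arrays all lay below its RDL arrays, without a call.

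Vldlr, a lipoprotein receptor whose gene ATF4 can induce, read 54.7, 57.4 and 62.5 in ES cells, 217, 194 and 235 in RDL day 4, 267, 357 and 465 in CDL day 4, 129, 123 and 107 in RDL day 6, and 204, 178 and 224 in CDL day 6. All differentiated arrays lay above the ES arrays, the day 4 groups highest within each medium. The media differed by 0.69 ± 0.16 at day 4 (adjusted p = 0.018) and by 0.70 ± 0.16 at day 6 (adjusted p = 0.0105). The day 4 call was lost without any of 4 single arrays (0.50 to 0.70), lowest without array 3 of CDL, and the day 6 call without array 3 of CDL (0.63, adjusted p = 0.0558) or of RDL (0.63, adjusted p = 0.0538). Day 6 was lower than day 4 in both media (-0.79 and -0.78, each ± 0.16). Stc2, a secreted glycoprotein, read 47.9 to 66.0 on the 12 arrays outside CDL day 6 and 87.1, 96.2 and 92.3 in CDL day 6. It was 0.58 ± 0.09 higher in CDL than in RDL at day 6 (adjusted p = 0.000409), and both its other probe sets gave the same call.

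Set beside the promoter letters shown above, 6 of the 7 tested members with the TGATGNAA core were called higher in CDL at day 6 (Nupr1, Chac1, Asns, Vldlr, Trib3 and Slc1a4), and Herpud1 was not. Of the 21 tested members whose window lacked it, 8 were called higher, and of all genes tested 3.65% were. The share among all genes with the motif was not counted. The matches in Slc1a4 and Trib3 lie across and after the start. With certain single arrays left out, the calls of Asns, Vldlr, Trib3 and Slc1a4 were lost. So were those of Atf5, Mthfd2, Phgdh, Psph and Shmt2, whose windows lacked the motif. These counts describe the list and were not tested.

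Other genes of the pathway were read from 5 lists at day 6, where 3.65% of all genes were called higher in CDL and 3.92% lower. Of 14 tested genes for eIF2 kinases and eIF2 machinery, 0 were called between media at day 6, with 1 at an unadjusted p under 0.05. Of 19 tested cytosolic aminoacyl-tRNA synthetases 1 was higher in CDL, Sars at 0.41 ± 0.09 (adjusted p = 0.00822). Of 16 further ATF4 targets 3 were higher and 0 lower, namely Pck2, mitochondrial PEP carboxykinase, at 0.89 ± 0.12, Gpt2, an alanine transaminase, at 0.63 ± 0.16, and Slc6a9, a glycine transporter, at 0.60 ± 0.17. Pck2 read 392, 419 and 326 in CDL day 6 and 170, 219 and 208 in RDL day 6, and was the only gene of the 5 lists with a called interaction (1.02 ± 0.17, adjusted p = 0.00194). Of 21 endoplasmic reticulum chaperones and quality control genes 1 was higher, Dnajb9 at 0.80 ± 0.19, and of 18 genes of amino acid sensing by mTORC1 1 was higher, Deptor, an inhibitor of mTOR, at 0.68 ± 0.12.

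Markers of cell state moved with the medium at day 6. The summed signal of 6 ES cell markers was 579 to 763 in CDL and 254 to 307 in RDL, 1 of 6 called higher in CDL (Klf4, 1.92), while Nanog, Zfp42, Pou5f1 and Tfcp2l1 read 12.9 to 49.7 in both media against 2702 to 6343 in ES cells. Presomitic mesoderm markers summed to 507 to 793 in CDL and 176 to 274 in RDL, with 2 of 5 tested called higher (Dll1, 2.14, and Dll3, 0.79), and Msgn1 and Tbx6 read 19.6 to 44.3. Somite markers summed to 4523 to 6611 in CDL and 3464 to 4693 in RDL, with 3 of 6 higher (Tcf15, 1.50, Dmrt2, 0.88, and Pax3, 0.76) and 1 lower (Meox2, -0.75). Fibroblast-type matrix markers summed to 5192 to 7064 in CDL and 7738 to 10086 in RDL, with 4 of 7 lower (Lum, Postn, Col1a1 and Col3a1) and 0 higher. Endoderm markers summed to 187 to 230 in CDL and 358 to 380.4 in RDL (2 of 3 tested lower), and blood and endothelium markers to 126 to 156 and 219 to 242 (1 of 2 lower). Neural markers summed to 133 to 151 and 135 to 139.7, with 0 of 4 called. The part of these differences in the levels of Nupr1, Cth, Slc7a3 and the other members was not tested.

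The spread of the members between arrays of a group was widest on array 1 of RDL day 6. The median absolute deviation of the 34 members from their group means was 0.022 to 0.052 on the ES arrays, 0.062 to 0.126 at day 4 and 0.079 to 0.202 at day 6, against 0.047 to 0.063, 0.058 to 0.087 and 0.082 to 0.155 for all genes. Array 1 of RDL day 6 was also the widest over all genes, at 0.155. It held the highest value of its group for 17 members and the lowest for 12, as did array 3 of the ES group. Array 2 of CDL day 6 held the lowest Nupr1, Cth, Asns, Psat1 and Psph of its group and the highest Slc7a5, Slc7a1 and Atf5. Array 1 of RDL day 6 was the reverse for the same genes, with the highest of the former and the lowest of the latter in its group. These genes were named for holding this order, so it does not show that the members varied together. On array 2 of CDL day 6 the members deviated about as far as all genes (medians of 0.136 and 0.135). The source of this order was not tested. The day 6 differences between media in Nupr1, Cth, Slc7a3, Chac1, Aldh1l2, Ppp1r15a and Stc2 were called in all 26 alternative settings.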

How the data were processed

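RNA was measured on Affymetrix Mouse Genome 430 2.0 arrays after two-cycle labelling, per the labels' protocols. The deposited values are MAS5 intensity values on a linear scale, 1 per probe set and array, per the submitters' processing notes. The sources used here give no other setting of it. The values were converted to log2(signal + 12.6), the constant being the median over arrays of the 25th percentile. Of 45101 probe sets, 34945 carried 1 gene symbol, 932 several and 9160 none, and 64 were controls. A gene was tested if it exceeded the array median on 3 or more of the 15 arrays. Of 18193 genes, 12389 were tested with limma 3.58.1 (all 5 groups in 1 fit, intensity trend) in R 4.3.3, with Benjamini-Hochberg adjustment over all genes. In simulated data for the day 6 media, 62.7%, 94% and 100% of genes changed by 0.5, 1 and 2 on the log2 scale were recovered among 12389 genes, with 7 false calls. The simulated noise was independent between arrays, with changes in 1 group only and no array that stood apart, so these rates need not hold for the real arrays. Arrays of RDL day 4 deviated together with those of the same replicate number in RDL day 6 (correlations of 0.285, 0.259 and 0.219) and CDL day 6 (0.276, 0.204 and 0.108). No other pair of groups had all 3 over 0.1. Between RDL day 6 and CDL day 6 the correlations were the largest for arrays 1 and 2 (0.608 and 0.587), and -0.242 for array 3. The replicate number was therefore also tried as a block. The members and lists were chosen with earlier results of these data known. All members were described, and in each other list at most 4 genes, from those with the largest called differences in a comparison, were named. No 2 arrays held identical values. Figures were drawn with matplotlib 3.10.9.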

Additional observations from a re-analysis of the deposited data

Results flagged for a closer look

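For 8 members the difference between CDL and RDL was larger at day 6 than at day 4 by the test of that difference itself in the limma fit. The differences between the effects were 2.98 for Nupr1, 1.79 for Cth, 1.67 for Slc7a3, 1.23 for Psph, 1.22 for Atf5, 1.20 for Aldh1l2, 0.68 for Psat1 and 0.47 for Phgdh, on the log2(signal + 12.6) scale. In Psph, Atf5, Psat1, Phgdh and Aldh1l2 the effect was below 0 at day 4 (-0.48, -0.31, -0.23, -0.19 and -0.11, none of them called) and above 0 at day 6. Line, strain and reporter also changed between the 2 days, and their part was not tested.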

How the results depend on the processing

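Over 26 alternative settings, the counts of called members moved by over 1.5 times in 2 comparisons. CDL against RDL at day 4 called 3 members in the main analysis, 0 to 4 with 1 array left out and 5 (4 higher and 1 lower) without both arrays that stood apart. CDL against RDL at day 6 called 18 in the main analysis, 12 to 18 with 1 array left out, and 8 when only the groups compared entered the fit. The interaction of medium and day called 8, and 7 to 11 with 1 array left out. With the replicate number as a block, the counts were 4 at day 4, 19 at day 6 and 10 for the interaction, with 10 calls gained and none lost over the 9 comparisons. In the mean of its probe sets Ddit3 turned direction against ES cells, to 0.68 in CDL day 6 and 0.088 in RDL day 6. Over single members, 190 results lost a call, 113 gained one and 2 reversed, while 7651 kept direction and side of the threshold. The 3 arrays of a group limit the precision. Members near the array medians, such as Cbs and Slc1a5 on most arrays outside ES cells, are compressed by the added constant.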

Other observations

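Among genes of the pathway outside the 36, some moved far from ES cells by day 4 in both media. Atf3, a stress-induced transcription factor, rose by 2.18 in RDL and 2.27 in CDL, and Tsc22d3, a glucocorticoid-responsive gene, rose by 1.56 and 1.33. The amino acid transporter genes Slc38a1 (1.48 in RDL and 1.40 in CDL) and Slc43a1 (1.09 and 1.41) rose as well. Sesn3, a relative of Sesn2, rose by 1.19 and 1.55 (log2 scale), while Sesn1 differed by -0.81 in CDL. Of the 18 tested genes of amino acid sensing by mTORC1, 4 were higher and 6 lower in RDL day 4, and 4 and 7 in CDL day 4. Of the 16 further ATF4 targets, 8 were higher and 3 lower in RDL day 4, and 10 and 2 in CDL day 4. Of all genes, 27.6% were higher and 29.4% lower in RDL day 4, and 26.6% and 29.4% in CDL day 4. Eif2ak3, the eIF2 kinase of the endoplasmic reticulum (PERK), differed from ES cells by -1.24 in RDL and -1.05 in CDL, and Impact, an inhibitor of the eIF2 kinase GCN2, by 0.85 and 1.05. The cytosolic aminoacyl-tRNA synthetases were lower than in ES cells for 7 of 19 tested genes in RDL day 4, 10 in CDL day 4, 14 in RDL day 6 and 8 in CDL day 6, where 29.4%, 29.4%, 33.2% and 33.2% of all genes were called lower. They were higher for 2, 1, 1 and 0 (all genes: 27.6%, 26.6%, 28.3% and 27.8%).

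Between day 4 and day 6, Castor1, an arginine sensor upstream of mTORC1, differed by -1.56 in RDL and -1.33 in CDL, and Rragd, a Rag GTPase, by 0.85 and 1.27. Pck2 differed by -0.75 in RDL.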
